A study of Mus musculus with 8 samples.

Results

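The dual specificity MAP kinase phosphatases described here are 10 genes, Dusp1, Dusp2, Dusp4, Dusp5, Dusp6, Dusp7, Dusp9, Dusp10, Dusp14 and Dusp16, out of 33629 genes and unnamed features measured on mouse arrays. They were taken from a list of names, and each probe was assigned by the transcript accession it carries. Dusp9 had stood out in earlier results of the same arrays, so the family was chosen by its measured difference between the groups, and the values of that comparison are given here as a description. All 10 genes passed the filter on dim probes. Of 11 probes in all, 9 genes had 1 probe each and Dusp16 had 2.

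The tissue was the mesonephric tubule, the epithelium of a transient embryonic kidney, cut by microdissection from frozen sections of mouse embryos of the strain C57/BL6 that had been stained with toluidine blue. The groups were 3 arrays labelled p21-/- and 5 arrays labelled wild type, each with 1 sample of total RNA labelled with Cy3. The p21-/- embryos carry null alleles of p21, the cyclin-dependent kinase inhibitor encoded by Cdkn1a, and the design sets tubules it calls senescent (wild type) against tubules it calls non-senescent. Embryonic age is not in the labels, and nothing there tells whether the samples are of different embryos, so any p-value covers only the spread between these samples.

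The series as a whole sets limits on what follows. Cdkn1a was not clearly lower in the arrays labelled p21 knockout: probe 1 averaged 1.49 ± 0.58 (SD, n = 3) in them and 1.68 ± 0.90 (SD, n = 5) in wild type, and probe 2 averaged −1.81 ± 0.33 in them and −1.57 ± 0.47 in wild type. The labels and files do not place these probes relative to the deleted sequence, and a probe outside it checks nothing. Every direction below therefore rests on the label. Levels are log2 of the processed signal minus the 75th percentile of the same array, so 0 stands for that percentile, and differences are labelled p21 knockout minus wild type. On single arrays 82.4% to 89.3% of probes were well above background. Precision is limited by the number of arrays, which came from 3 slides with both groups on each. Of 18 tubule markers 15 had a probe well above background on every array, among them Pax2, Lhx1 and Cdh16. Ret, a receptor of the nephric duct, was dim, that is not well above background, on all 3 labelled knockout arrays.

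MAP kinases are switched on by phosphorylation of a threonine and a tyrosine in their activation loop, and the dual specificity phosphatases remove both phosphates. Several are themselves transcribed in response to MAP kinase activity, which makes them feedback inhibitors and also reporters of the pathway. Dusp6, Dusp7 and Dusp9 work in the cytoplasm and prefer the kinase ERK. Dusp1, Dusp2, Dusp4 and Dusp5 are nuclear and are induced by growth factors or stress. Dusp10 and Dusp16 prefer the stress kinases JNK and p38, and Dusp14 is a small enzyme without the kinase-binding domain of the others. In the embryonic kidney, ERK activity downstream of receptor tyrosine kinases takes part in the growth and branching of the epithelium.

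Promoter sequences from RefSeq (GRCm38.p6, 250 bases before to 50 after a start site) were matched for 8 of the 10 genes, all but Dusp4 and Dusp9. For 5 of them this site is the outer start of the gene in the RefSeq annotation. For Dusp7, Dusp14 and Dusp16 it lies 72, 899 and 14435 bases inside the annotated gene, so these windows do not show the outermost start. Both strands were searched for the cyclic AMP response element TGACGTCA, its half-site TGACG, an AP-1 site TGANTCA and an ETS site CCGGAA. The CArG box bound by serum response factor, a TATA box TATAAA, an E2F site TTTCGCG, an E box CACGTG and a GC box GGGCGG were searched too. Of ETS sites only this string was searched, and shorter cores such as GGAA were not. A half-site inside a full element was counted as well. The sequences of the nuclear genes Dusp1, Dusp2 and Dusp5 and of the cytoplasmic genes Dusp6 and Dusp7 are shown as examples of both classes, picked after their motifs were seen. Capitals mark every motif listed except GC boxes.
Dusp1 promoter, chr17:26508423-26508722, minus strand, GRCm38.p6: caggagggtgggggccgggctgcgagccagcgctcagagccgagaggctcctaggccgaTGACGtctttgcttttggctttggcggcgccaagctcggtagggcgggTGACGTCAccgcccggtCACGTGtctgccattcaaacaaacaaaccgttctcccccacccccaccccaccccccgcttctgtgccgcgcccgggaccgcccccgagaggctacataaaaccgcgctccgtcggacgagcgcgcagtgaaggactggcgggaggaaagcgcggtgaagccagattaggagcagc
Dusp2 promoter, chr2:127335909-127336208, plus strand, GRCm38.p6: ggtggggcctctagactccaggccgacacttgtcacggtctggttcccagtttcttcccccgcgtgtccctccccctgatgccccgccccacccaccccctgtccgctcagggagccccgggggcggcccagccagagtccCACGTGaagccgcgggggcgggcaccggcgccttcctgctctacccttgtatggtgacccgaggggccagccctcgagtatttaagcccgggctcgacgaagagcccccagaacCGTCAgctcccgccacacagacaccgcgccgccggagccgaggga
Dusp5 promoter, chr19:53528895-53529194, plus strand, GRCm38.p6: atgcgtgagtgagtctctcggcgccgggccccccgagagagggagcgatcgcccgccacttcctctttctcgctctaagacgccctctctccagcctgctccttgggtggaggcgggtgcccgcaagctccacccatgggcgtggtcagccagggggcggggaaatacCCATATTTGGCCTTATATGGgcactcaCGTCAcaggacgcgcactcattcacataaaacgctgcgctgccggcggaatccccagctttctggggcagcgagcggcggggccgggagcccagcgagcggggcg
Dusp6 promoter, chr10:99262981-99263280, plus strand, GRCm38.p6: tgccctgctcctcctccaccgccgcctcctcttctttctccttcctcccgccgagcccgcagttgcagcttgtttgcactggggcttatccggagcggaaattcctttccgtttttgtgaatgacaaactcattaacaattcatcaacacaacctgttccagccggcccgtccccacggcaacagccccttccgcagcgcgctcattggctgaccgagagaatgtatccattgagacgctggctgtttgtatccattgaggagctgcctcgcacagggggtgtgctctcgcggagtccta
Dusp7 promoter, chr9:106368382-106368681, plus strand, GRCm38.p6: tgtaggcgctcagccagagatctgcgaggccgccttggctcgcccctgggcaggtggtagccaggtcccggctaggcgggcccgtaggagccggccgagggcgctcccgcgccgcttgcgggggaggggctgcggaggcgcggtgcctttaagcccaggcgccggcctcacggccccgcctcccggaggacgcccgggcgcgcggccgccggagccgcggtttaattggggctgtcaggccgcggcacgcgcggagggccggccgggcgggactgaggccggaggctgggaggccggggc
The Dusp1 window held a full cyclic AMP response element from base −143 to −136, a further half-site and an E box. The Dusp5 window held 2 adjacent CArG boxes, from −82 to −73 and from −72 to −63, followed by a half-site. Dusp2 held an E box and a half-site that begins 5 bases after the start. Neither the Dusp6 nor the Dusp7 window held a capitalised motif, and of the 2 Dusp7 held a GC box. Among 32851 promoters of the same length, 1.79% held the full element, 20.8% the half-site and 1.63% a CArG box. The E box was found in 7.15%, the ETS site CCGGAA in 14.9% and a GC box in 35.7%. The AP-1 site (7.81% of promoters), the TATA box (13.6%) and the E2F site (0.849%) were found in none of the 8 windows. Of the genes not printed, Dusp14 held the ETS site, Dusp16 a half-site and Dusp10 GC boxes alone. A match describes letters in this window, and binding was not measured.

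**Figure D1:**
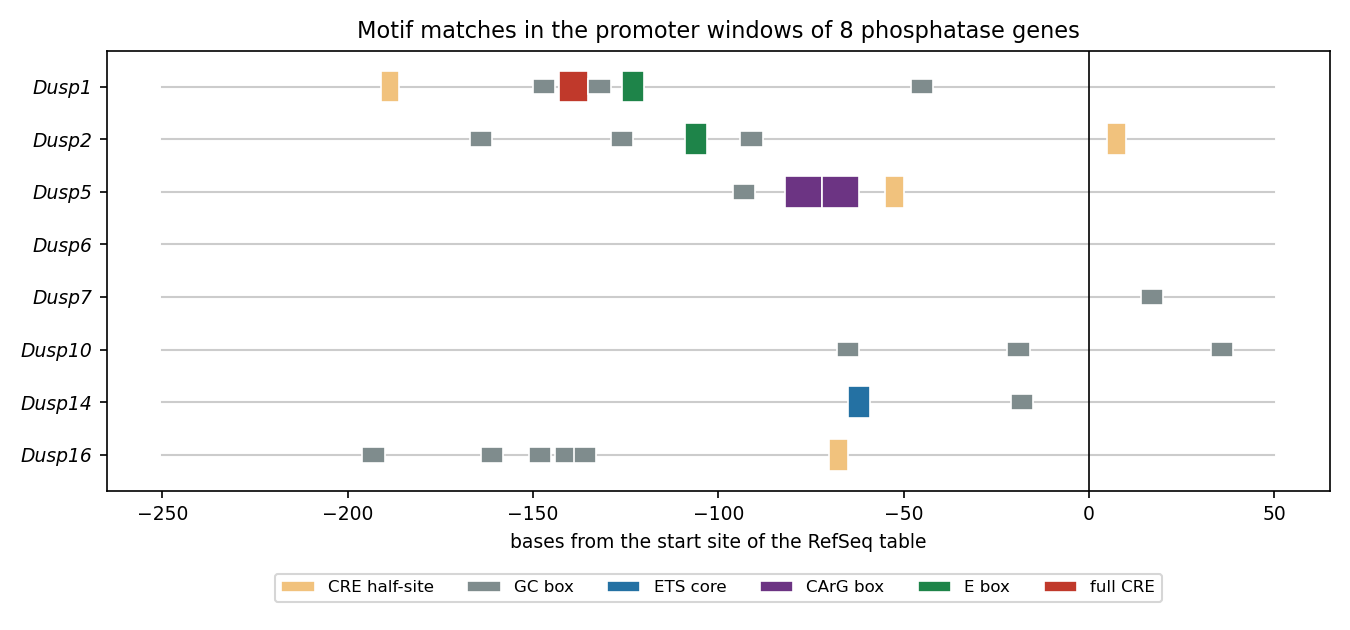
Motif matches in the promoter windows of 8 phosphatase genes, with bases from the start site of the RefSeq table on the x axis and 1 gene per line. ETS core stands for the ETS site CCGGAA. Coloured blocks are matches on either strand and white edges separate neighbours; Dusp5 carries 2 adjacent CArG boxes, Dusp1 a full cyclic AMP response element, and Dusp6 no block.

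The 10 phosphatases showed no common shift. In the labelled knockouts 5 of them were higher than in wild type and 5 lower, with a median log2 difference of −0.01, beside −0.03 over all features. This small median was positive under each of the other scalings and in the authors' deposited log2 values (0.000367 to 0.0934). With limma and Benjamini-Hochberg adjustment over all 33629 features, 0 of the 10 had an adjusted p under 0.05, and the share called over all features was 0%. At an unadjusted p under 0.05 the count was 1 of 10, against 10.1% of all features. Since the same contrast chose the family, nothing is read from these counts.

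Dusp9 was the member whose groups stood apart. It lies on chromosome X and encodes a cytoplasmic ERK phosphatase known from placenta, kidney and liver. Its log2 level was 0.98, 0.46 and 0.46 in labelled p21 knockout replicates 1 to 3, against −0.86, −1.16, −0.51, −1.45 and −1.25 in wild-type replicates 1 to 5. Each labelled knockout array lay above the 75th percentile of its array and each wild-type array below it. It averaged 0.63 ± 0.30 (SD, n = 3) in the labelled knockouts and −1.04 ± 0.37 (SD, n = 5) in wild type. The difference was 1.68 (standard error 0.31), which is 3.20-fold higher in the labelled knockouts. Before any scaling, the processed intensities were 4403, 3291 and 3845 in the labelled knockouts, and the wild-type arrays ran between 892 and 1245. The groups did not overlap on that scale either. Over all features, 4.42% had every labelled knockout array above every wild-type array.

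The difference of Dusp9 was similar on each slide. These are the arrays on which Dusp9 stood out, so the values describe its difference and do not check it. The difference was 1.82 on slide 1, which held wild-type replicates 1 to 3 and labelled knockout replicate 1. It was 1.91 on slide 2 and 1.71 on slide 3, each with 1 array of each group. It ran between 1.50 and 1.81 with each array left out in turn, and between 1.48 and 1.91 over all 27 other settings. Within an array, the log ratio of Dusp9 to Dusp6 was higher by 2.28 in the labelled knockouts than in wild type and that of Dusp9 to Dusp7 by 2.32, differences that do not depend on the scaling between arrays.

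Dusp6, a feedback phosphatase induced by ERK and by fibroblast growth factors, had the opposite sign. Its log2 level was 1.65, 1.18 and 1.45 in the labelled knockouts, against 2.41, 2.29, 1.38, 2.45 and 1.60 in wild type. Wild-type replicates 1, 2 and 4 lay above all labelled knockouts, and replicates 3 and 5 lay among them. The difference was −0.60 (standard error 0.35), which is 1.52-fold lower. Within slides 1, 2 and 3 it was −0.38, −1.27 and −0.16, and it stayed between −0.76 and −0.48 with each array left out.

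Dusp7, the third cytoplasmic ERK phosphatase, had the same sign as Dusp6. Its log2 level was 0.10, 0.40 and −0.37 in the labelled knockouts, against 1.09, 0.53, 0.24, 0.90 and 0.65 in wild type. Only wild-type replicate 3 and labelled knockout replicate 2 overlapped. The difference was −0.64 (standard error 0.32), which is 1.56-fold lower, and within slides it was −0.52, −0.50 and −1.02. Without wild-type replicate 3 the groups of Dusp7 no longer overlapped, which made 2 of 10 members with Dusp9, against 8.67% of all features in that setting. Without labelled knockout replicate 2 the count was also 2 of 10, against 17.6%. With all arrays it was 1 of 10, against 6.9%.

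**Figure D2:**
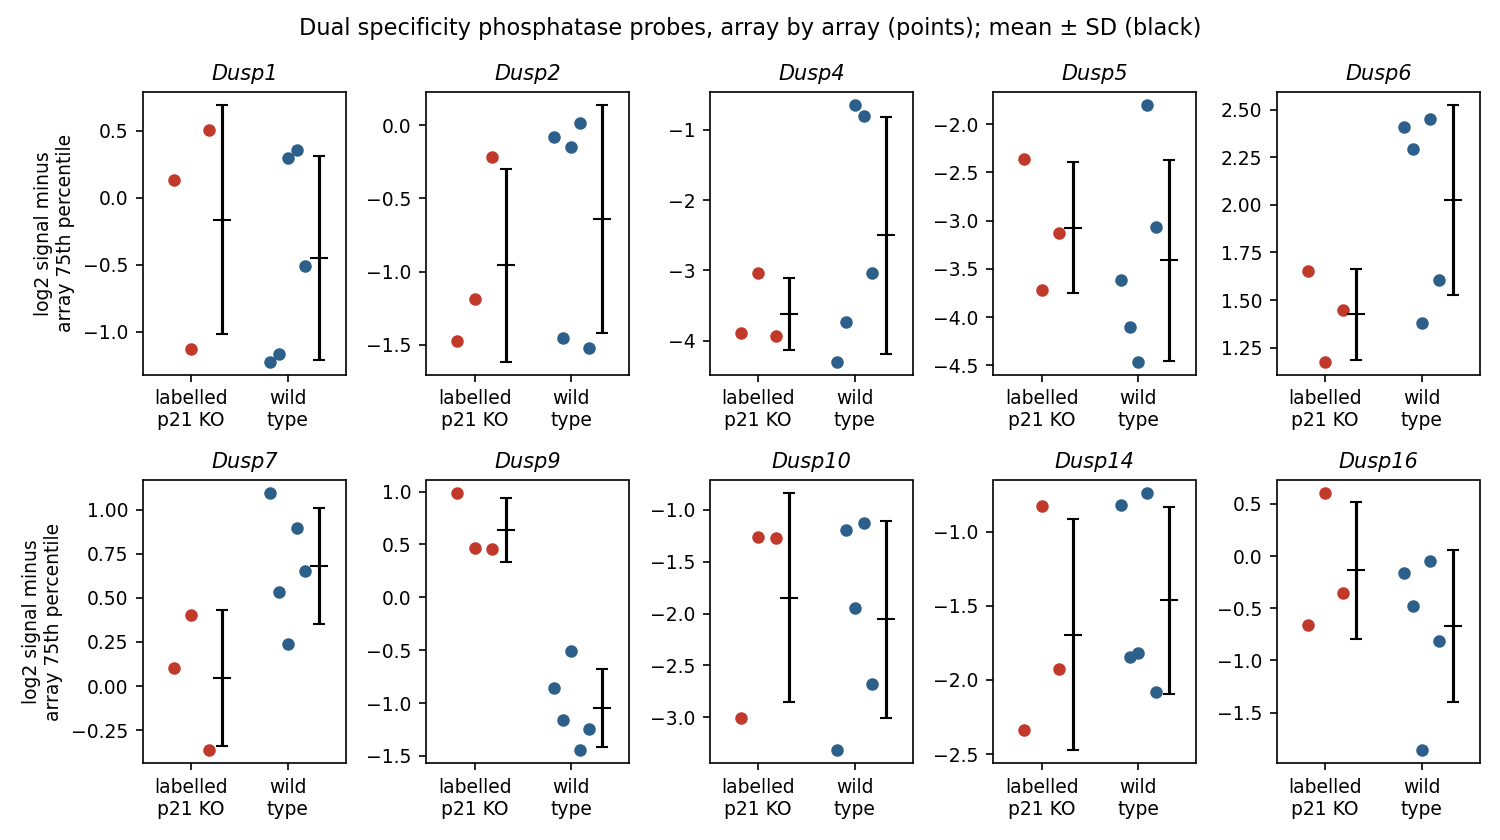
Log2 signal minus the 75th percentile of the array for the 10 phosphatases, 1 panel per gene with its own y axis; points are arrays, labelled p21 knockout (3, left) and wild type (5, right), and black bars are means ± SD. In the Dusp9 panel all labelled knockout points lie above the wild-type points; in the other panels the groups overlap.

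Among the nuclear inducible enzymes, none had groups that stood apart. Dusp1, an early response gene that acts on p38, JNK and ERK, was at 0.13, −1.13 and 0.51 in the labelled knockouts, against −1.22, −1.16, 0.30, 0.36 and −0.51 in wild type. Both groups spanned about the same range, and the difference was 0.29 with a standard error of 0.53. Its sign turned without labelled knockout replicate 3 (−0.05). Dusp2, an enzyme best known from immune cells, was at −1.47, −1.19 and −0.22 in the labelled knockouts, against −0.08, −1.45, −0.15, 0.01 and −1.53 in wild type. Its difference was −0.32 with a standard error of 0.50, and it was −0.06 without labelled knockout replicate 1 and −0.69 without replicate 3. On slide 3 alone it was 1.31.

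Dusp4 and Dusp5 varied widely among the wild-type arrays. Dusp4, a nuclear phosphatase of ERK and JNK, was at −3.89, −3.04 and −3.94 in the labelled knockouts, against −4.30, −3.74, −0.64, −0.80 and −3.03 in wild type. Wild-type replicates 3 and 4 stood far above every other array, and the other 3 wild-type arrays lay near the labelled knockouts. The wild-type SD was 1.69, while the 90th percentile of wild-type SD over all features was 1.42. The difference of −1.12 had a standard error of 0.87, and leaving out wild-type replicate 3 or 4 made it −0.65 or −0.69. Dusp5, a nuclear phosphatase specific for ERK, was at −2.36, −3.72 and −3.13 in the labelled knockouts, against −3.62, −4.10, −4.46, −1.80 and −3.06 in wild type. Its groups overlapped fully, with a difference of 0.34 and a standard error of 0.61. That difference was −0.02 without labelled knockout replicate 1, and leaving out wild-type replicate 3 or 4 made it 0.07 or 0.74.

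The phosphatases of the stress kinases also overlapped between groups. Dusp10, which acts on p38 and JNK, was at −3.01, −1.27 and −1.27 in the labelled knockouts, against −3.32, −1.19, −1.95, −1.13 and −2.68 in wild type. The difference of 0.21 had a standard error of 0.62 and turned negative without wild-type replicate 1 (−0.11) or without labelled knockout replicate 2 or 3 (−0.09 for each). The brighter of the 2 Dusp16 probes was at −0.66, 0.60 and −0.35 in the labelled knockouts, against −0.16, −0.48, −1.86, −0.05 and −0.81 in wild type. Dusp16 favours JNK, and its difference of 0.54 had a standard error of 0.48. It was 0.24 without wild-type replicate 3 and 0.17 without labelled knockout replicate 2. The dimmer Dusp16 probe averaged −3.08 in the labelled knockouts and −3.85 in wild type, where replicate 3 (−7.92) was not well above background. Both probes thus had the same sign, and both were lowest on that array.

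Dusp14 was at −2.34, −0.83 and −1.92 in the labelled knockouts, against −0.82, −1.85, −1.82, −0.74 and −2.08 in wild type. The groups overlapped, with a difference of −0.23 and a standard error of 0.47, which was 0.09 without labelled knockout replicate 1 and −0.67 without replicate 2. The differences of Dusp1, Dusp5, Dusp10 and Dusp14 each took both signs when single arrays were left out. Those of Dusp4, Dusp6, Dusp7, Dusp9 and Dusp16 kept their sign in every setting tried, slides included.

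**Figure D3:**
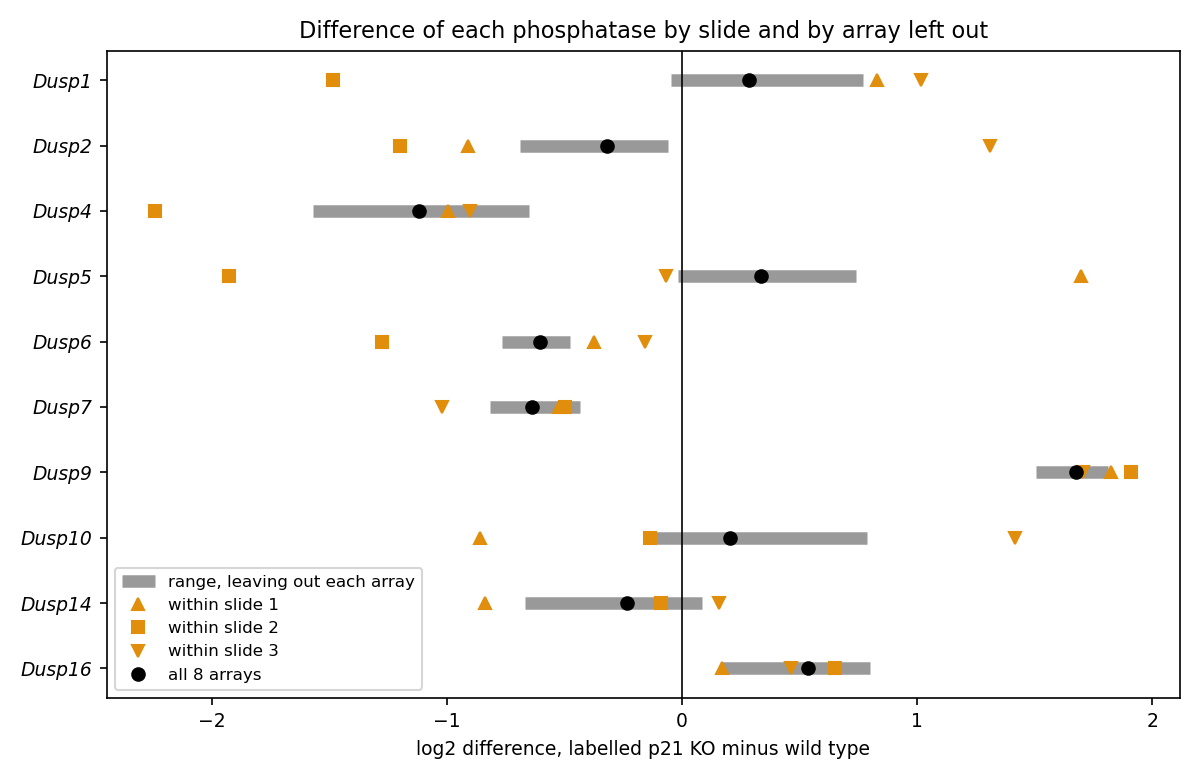
Log2 difference, labelled p21 knockout minus wild type, for each phosphatase: all 8 arrays (black points), within slides 1, 2 and 3 (orange symbols) and the range with each array left out (grey bars). The Dusp9 values lie between 1.50 and 1.91, whereas the slide values of Dusp1, Dusp2, Dusp5, Dusp10 and Dusp14 lie on both sides of 0.

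Feedback and target genes of ERK signalling were mostly lower in the arrays labelled p21 knockout, though 0 of them passed the adjusted threshold. Of 15 measured genes of this list 3 were higher and 12 lower, while 47.7% of all features were higher. The median log2 difference was −0.45, beside −0.03 over all features. Of the 15, 3 had an unadjusted p under 0.05, all of them lower, against 10.1% of all features in either direction. The median was between −0.48 and −0.38 under the other scalings and between −0.60 and −0.33 with single arrays left out. Il17rd, a membrane inhibitor of fibroblast growth factor signalling, had a difference of −1.63 (standard error 0.50), with labelled knockout replicate 2 inside the wild-type range. Phlda1 was at −0.32, −0.45 and 0.09 in the labelled knockouts, against 1.40, 1.39, 0.52, 1.50 and 0.32 in wild type, groups that did not overlap (2.47% of all features lay apart in that direction). Spred3, an inhibitor of RAS signalling, differed by −1.40, and by −0.88 without labelled knockout replicate 1 and −0.74 with normexp background correction.

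With the mean of liver markers as a covariate the median of the ERK list was −0.20, with 5 genes higher and 10 lower, and with the mean of erythroid markers it was 0.06, with 8 higher and 7 lower. With these covariates the difference of Phlda1 was −0.64 and −0.63 and that of Il17rd −0.53 and −0.52. The covariates were chosen with results of these data known. The erythroid mean did not overlap between the groups (2.95 to 3.81 in the labelled knockouts against 0.72 to 2.87 in wild type). The liver mean overlapped little (2.76 to 4.14 against −0.80 to 2.94). A fit with either covariate therefore cannot separate it well from the label, and no cause is read from these values. Immediate early genes were split, with 5 of 11 higher, 6 lower and a median of −0.37. That median was 0.18 with the liver mean as a covariate (7 higher, 4 lower), 0.04 with the erythroid mean and −0.06 on the 6 arrays that share replicate numbers. Jun, a subunit of AP-1, was 2.80-fold lower (difference −1.49, standard error 0.43). Its groups did not overlap, and 2.47% of all features lay apart in that direction. Egr3, a zinc finger factor, had a difference of 1.16 (standard error 0.70), which the liver covariate made 0.19 and the erythroid covariate 0.62. Nr4a1, an orphan nuclear receptor, had one of −0.54 (standard error 0.44), and −0.82 without wild-type replicate 5.

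In the kinase cascade itself, Map2k3, which activates p38, differed most among the MAP kinase kinases. Its log2 level was 1.19, 1.15 and 1.82 in the labelled knockouts, against −0.20, −0.79, −1.51, −0.79 and 0.16 in wild type. The groups did not overlap, and 4.42% of all features lay apart in that direction. The difference of 2.01 (standard error 0.41), or 4.02-fold, ran between 1.78 and 2.20 with single arrays left out. It was 1.25 with the erythroid covariate. The list of 7 had 4 higher and 3 lower, with a median of 0.17. Map2k2, an activator of ERK, differed by 0.61, and Map2k7, an activator of JNK, by −0.36, or −0.07 without wild-type replicate 5. Of 14 MAP kinases 4 were higher and 10 lower, with a median of −0.35, between −0.39 and −0.27 under the other scalings. Mapk7, which encodes ERK5, was 1.82-fold lower, the atypical kinase gene Mapk4 2.12-fold and Mapk11, a p38 isoform, 2.42-fold. The groups of each overlapped. Mapk11 was at −2.86, −2.34 and −1.98 in the labelled knockouts, against −1.86, −2.38, 0.20, 0.28 and −1.86 in wild type. Wild-type replicates 3 and 4 were thus the high ones, and its difference was −0.75 with array weights, against −1.27 in the main fit. Without labelled knockout replicate 3 the difference of Mapk7 was −0.54, against −0.87 with all arrays. Of the 14, 1 had an unadjusted p under 0.05, a share no higher than the 10.1% of all features.

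Upstream of ERK, 10 of 17 RAS and RAF genes were higher and 7 lower, with a median of 0.07. Hras differed by 1.04 on its brightest probe and by 0.26 on the mean of its probes. Nf1, which inactivates RAS, was 1.69-fold lower, and Rasgrp1, a RAS activator of lymphocytes, differed by 2.56 (1.37 with normexp correction) but was well above background on 3 of 5 wild-type arrays. Of 15 MAP3K and TAO kinases 6 were higher and 9 lower, with a median of −0.12. Map3k6 differed by 0.76, Taok3 by 1.02 (0.67 without wild-type replicate 2) and Map3k3 by −0.57 (−0.36 without labelled knockout replicate 1). Of 13 scaffolds and effector kinases 7 were higher and 6 lower, among them Mapkapk3, a substrate kinase of p38, which was 3.14-fold higher, Mknk2, 1.67-fold higher, and the JNK scaffold gene Mapk8ip1, 2.15-fold lower. With the liver and erythroid covariates the differences were 0.96 and 0.72 for Mapkapk3, against 1.65 without. They were 0.41 and 0.22 for Mknk2, against 0.74, and −0.61 and −0.25 for Mapk8ip1, against −1.10. An unadjusted p under 0.05 was reached by 3 of the 17 RAS and RAF genes and 4 of the 13 scaffolds and effector kinases. The count was 0 of the 15 MAP3K and TAO kinases and 1 of the 7 MAP kinase kinases, against 10.1% of all features.

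Phosphatases outside the 10 showed no shared direction either. Among 9 other phosphatases of MAP kinases 6 were higher and 3 lower, with a median of 0.07. Ptpn7, a tyrosine phosphatase of blood cells, was 1.75-fold higher, Ppm1d, a serine and threonine phosphatase induced by p53, differed by 0.46, and Ptpn5, of neurons, was well above background on 1 of 3 labelled knockout and 4 of 5 wild-type arrays. Of 15 other Dusp and Styx genes 5 were higher and 10 lower, with a median of −0.23. Dusp18 was at −1.15, −1.11 and −1.16 in the labelled knockouts, against −0.13, 0.19, 1.18, 1.25 and 0.47 in wild type. Its groups did not overlap (2.47% of all features lay apart in that direction), and it was 3.33-fold lower. Dusp26, known from neural tissue, was at −3.01, −1.84 and −4.87 in the labelled knockouts, against −2.19, −2.14, 2.32, 2.02 and −2.51 in wild type. As for Dusp4, wild-type replicates 3 and 4 were the high ones. Dusp23 differed by −0.92, and by −0.47 without labelled knockout replicate 2.

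**Figure D4:**
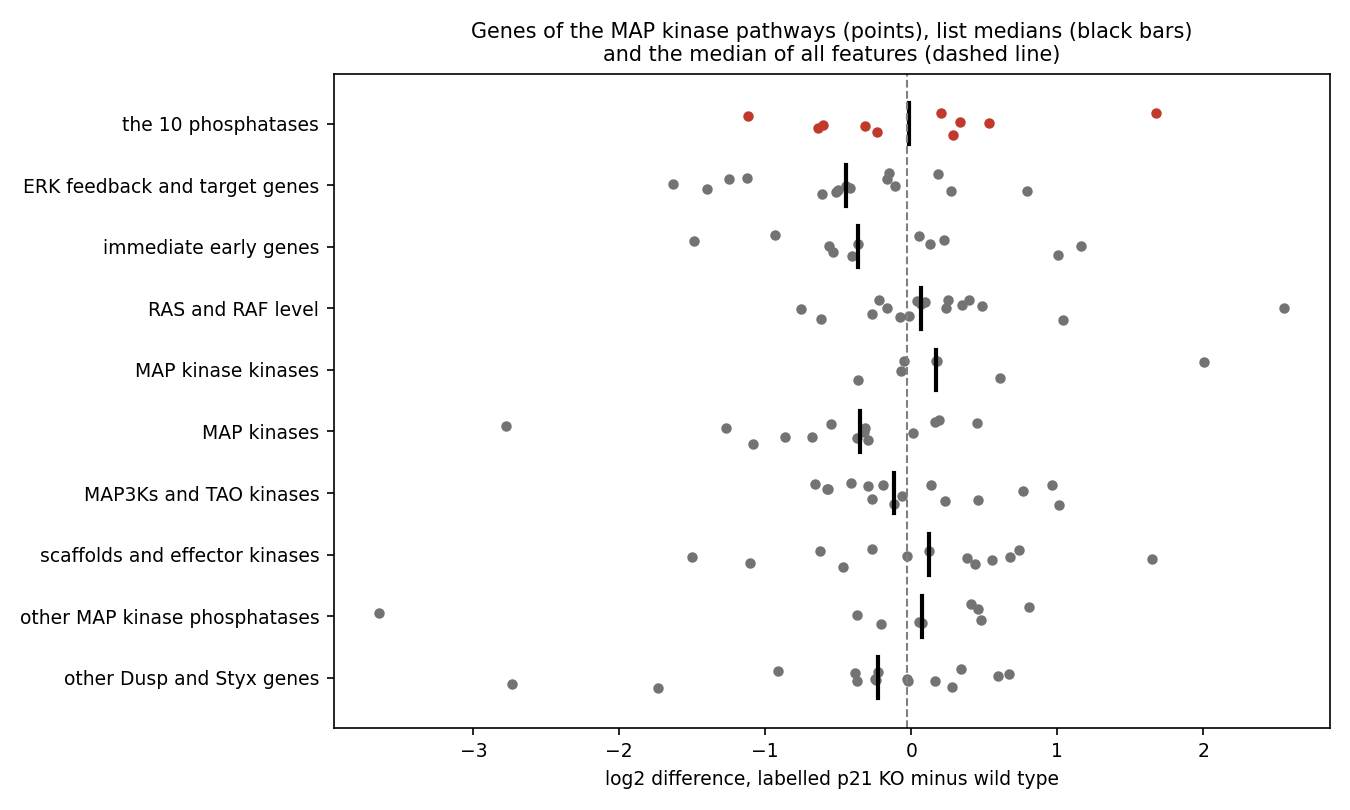
Log2 difference, labelled p21 knockout minus wild type, on the x axis for the 10 phosphatases (red points) and for genes of 9 other lists of the MAP kinase pathways (grey points), with list medians as black bars and the median of all features as a dashed line. The bar of the ERK feedback and target genes lies at −0.45 and that of the 10 phosphatases at −0.01.

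Markers of other cells moved with the groups. All 19 measured liver markers were higher in the arrays labelled p21 knockout, with a mean log2 level of 2.76 to 4.14 against −0.80 to 2.94 in wild type. Of 18 erythroid markers 15 were higher (2.95 to 3.81 against 0.72 to 2.87), and of 17 leukocyte markers 14 (0.80 to 1.50 against −0.60 to 0.99). Neural markers were higher for 1 and lower for 16 of 17 (−2.74 to −2.04 against −1.98 to −0.15), and stroma and muscle markers lower for 14 of 17 (0.16 to 0.40 against 0.77 to 1.64). Tubule markers were lower for 14 of 18 (−1.96 to −1.08 against −2.00 to 0.54). Endothelial markers were split, 8 higher and 6 lower with a median difference of 0.06, as were gonadal markers, 8 and 7 with 0.04. Of 8 measured trophoblast markers 1 was higher and 7 lower, with a median of −0.12. In such bulk samples fewer cells of a type and less RNA per cell cannot be told apart.

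The difference of Dusp9 was 1.56 with the liver mean as a covariate and 1.48 with the erythroid mean. Dusp10 moved most, from 0.21 without a covariate to 1.41 and 1.80, and Dusp16, at 0.54 without, was at 1.16 and 1.21. The difference of Dusp6 was −0.23 and −0.21 with the same covariates. Dusp1, at −0.45 and −0.15, and Dusp14, at 0.31 and 0.40, changed sign with both. Dusp5 was −0.33 with the liver mean and 0.08 with the erythroid mean, and Dusp4 was −1.35 and −0.47. Dusp2 (−0.34 and −0.32) and Dusp7 (−0.54 and −0.53) moved little. Among the pathway genes named above, Taok3 (−0.49 and −0.53) and Nr4a1 (0.20 and 0.07) changed sign with both covariates, and Map3k3 (0.03) and Ptpn7 (−0.14) with the erythroid mean. With the erythroid mean the differences were also nearer 0 for Map2k2 (0.37), Mapk4 (−0.71), Nf1 (−0.49), Map3k6 (0.50) and Dusp26 (−0.87), while that of Hras was 1.66 with either covariate. The part of other cell types in these differences was not tested further.

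**Figure D5:**
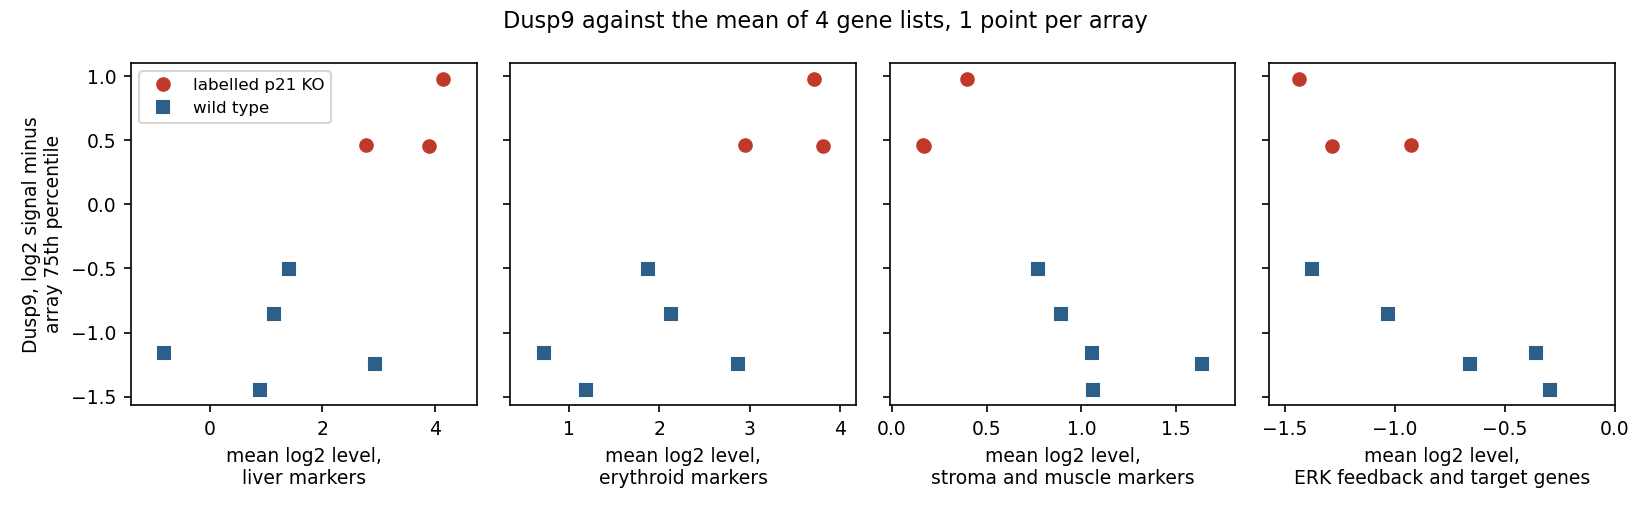
Dusp9 level (y axis, log2 signal minus the 75th percentile of the array) against the mean log2 level of liver, erythroid, stroma and muscle, and ERK feedback and target genes (x axes), 1 point per array: labelled p21 knockout (red circles) and wild type (blue squares). The labelled knockout points run from 0.46 to 0.98 in Dusp9 and the wild-type points from −1.45 to −0.51; the stroma and muscle means run from 0.16 to 0.40 and from 0.77 to 1.64.

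Covariation across the 8 arrays was computed between each phosphatase and the mean of 8 lists, 80 relations in all, with two-sided exact permutation tests of Pearson's r and Spearman's rho. None had an adjusted p under 0.05 (smallest 0.330 for r and 0.365 for rho), and 9 had an unadjusted p under 0.05 for r. The arrays of a slide were too few for values within slides. Dusp4 went with neural markers, with r = 0.81 (exact permutation p = 0.00995, adjusted 0.330) and rho = 0.74 (exact permutation p = 0.0458, adjusted 0.443). Its r was 0.90 on values centred within each group, and 0.73 without the 2 arrays farthest from the median of the marker mean. These were wild-type replicate 4 and labelled knockout replicate 3, so wild-type replicate 3, the highest in Dusp4, stayed in. Dusp6 went with immediate early genes, with r = 0.75 (exact permutation p = 0.0243, adjusted 0.330) and rho = 0.81 (exact permutation p = 0.0218, adjusted 0.443), 0.65 without such 2 arrays and 0.83 after centring.

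Dusp7 and Dusp14 went with tubule markers, at r = 0.76 for each (exact permutation p = 0.0277 and 0.0255, adjusted 0.330 for both), with rho of 0.62 and 0.74 (exact permutation p = 0.115 and 0.0458, adjusted 0.484 and 0.443). Centred within groups, r was 0.73 for Dusp7 and 0.76 for Dusp14. Both rested on wild-type replicates 1 and 4, without which r was 0.35 and 0.49. For Dusp9 the groups form separate clusters, so no pooled value is given. Its pooled relations with stroma and muscle, erythroid, neural and liver markers were among those with an unadjusted p under 0.05 for r. So was that with the ERK feedback and target genes. These pooled relations include the difference between the groups, which chose the family, so nothing is read from them. After centring, the r of Dusp9 was −0.38 with stroma and muscle, 0.24 with erythroid, −0.14 with neural and 0.16 with liver markers. Centred within groups, the r of Dusp9 with the ERK feedback and target genes was −0.89 (exact permutation p = 0.0111, adjusted 0.444 over the 80 centred relations). The wild-type array of highest Dusp9, replicate 3, had the lowest ERK mean of its group. None of the 80 centred relations had an adjusted p under 0.05, and 6 had an unadjusted p under 0.05.

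The genes whose levels over the 8 arrays were most like those of Dusp9, among 18018 named genes, were Tmie (r = 0.98), Klf16 (0.97), Olfr323 (0.96), Snf8 (0.96) and F11 (0.96). Their own differences ran between 0.39 for Snf8, a subunit of an endosomal sorting complex, and 3.51 for F11, a coagulation factor made by liver. Those most like Dusp6 were Ttc26 (0.97), Arfgef3 (0.96), Tmub1 (0.95), Rapgef3 (0.95) and Fhod3 (0.94). These values describe 8 arrays, are the highest of many, and share the difference between groups.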

How the data were processed

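Total RNA of mesonephric tubules was measured on 8 one-colour arrays. The scanner files deposited by the authors hold linear spot intensity values, which Agilent Feature Extraction (10.7.3.1, per the file headers) had corrected for background but not normalized between arrays. A second file deposited by the authors gives log2 values for each probe. Limma is named in the submitters' processing notes, and these log2 values correlated at 0.99995 or higher with normexp-corrected, quantile-normalized intensities. From there, log2 processed intensity minus the 75th percentile of each array was taken, spots marked as outliers were left out and spots of 1 probe averaged. Accessions were named through a RefSeq table (GRCm38.p6), which gave a symbol for 26056 of 55681 probes. Probes well above background on at least 3 of 8 arrays were kept (50064), and the brightest probe stood for a gene, which left 33629 features.

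The comparison used lmFit and eBayes of limma 3.58.1 (R 4.3.3; no covariate, Benjamini-Hochberg adjustment over all features, threshold 0.05), tested on simulated data first. The members and all gene lists were chosen with earlier results of these data known. Genes named were all members, Cdkn1a, the 3 of smallest p in each pathway list, the 5 most like Dusp9 or Dusp6, and sex-linked genes; Pax2, Lhx1, Cdh16 and Ret were named after their values were seen. Slides were read from the file names. Alternatives were other scalings, normexp with an offset of 50 on median intensities (mean intensities are not a column of these files), other filters and probe rules, slide or replicate number as a block, array weights, other moderation, the log2 values deposited by the authors, and each array left out in turn. The covariates were added later. Permutation tests were run in Python 3.11.15.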

Additional observations from a re-analysis of the deposited data

Results flagged for a closer look

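By Dixon's criterion for 5 wild-type arrays, which looks for a single array apart from the rest, 0 of 11 phosphatase probes were marked. It does not mark a pair of high arrays, such as those of Dusp4, and groups of 3 arrays were not tested.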

How the results depend on the processing

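The number of arrays, 5 against 3, limits the precision, and dim probes add to the spread. The count of members with an adjusted p under 0.05 was 0 in all 25 fits. Over all features these fits called 3 with normexp correction and the 75th percentile, 8 with array weights, 1 without wild-type replicate 4 and 0 in the rest. The count of members whose groups did not overlap was 1 to 2 with single arrays left out, and the value of 2 came on leaving out wild-type replicate 3 or labelled p21 knockout replicate 2, where Dusp7 joined Dusp9; it is not defined for blocks, weights, moderation or covariates. The median difference of the members was −0.45 within slide 1 and −0.85 within slide 2, against 0.31 within slide 3, and ran between −0.17 and 0.19 with single arrays left out; the cause was not tested. It was 0.31 with array weights and −0.28 with the liver mean as a covariate. With the replicate number as a block, on the 6 arrays that share numbers, it was 0.05, as without the block on those arrays, and 0 members were called. Arrays of the same number did not deviate together (r of 0.07, −0.09 and −0.07). So few values cannot settle whether the numbers pair the samples, and the sample titles do not say. The difference of Dusp9 ran between 1.48 and 1.91 over 27 settings, all on the arrays on which it had stood out.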

Other observations

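Dusp9 lies on chromosome X, and the arrays differed in sex-linked genes within both groups. Xist, the RNA that silences one X chromosome in females, was at 3.45, −0.72 and −7.81 in labelled p21 knockout replicates 1 to 3, against 2.70, −5.09, 1.31, −1.10 and 3.30 in wild-type replicates 1 to 5. The Y-linked gene Ddx3y was at −8.17, −0.21 and 0.10 in the labelled knockouts, against −1.70, −0.0044, −0.88, 0.17 and −8.29 in wild type. Kdm5d and Uty, also on the Y chromosome, were likewise not well above background on labelled knockout replicate 1 and wild-type replicate 5, while the probe for Eif2s3y gave signal on all arrays. Dusp9 was at 0.98 on labelled knockout replicate 1, where Xist was high and these Y genes were dim, and at 0.46 on replicate 3, where Xist was lowest. In wild type it was at −1.25 on replicate 5, where Xist was high, and at −1.16 on replicate 2, where Xist was low. Wild-type replicates 1, 3 and 4 and labelled knockout replicate 2 gave signal for both Xist and these Y genes. Wild-type replicate 2 did so too, with Xist low (−5.09) but well above background.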
